A study of Mus musculus with 2 samples.

Results

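The ligands of the EGF family and the ErbB receptors they bind were compared between 2 three-dimensional skin models of mouse cells. The members were 7 ligand genes (Egf, Areg, Ereg, Hbegf, Btc, Epgn and Tgfa) and 3 receptor genes (Egfr, Erbb2 and Erbb3), taken by their symbols from the platform annotation wherever a probe set carried exactly 1 symbol. Of the 10 members, 9 had such a probe set, 10 probe sets in all, out of 22180 genes and 33793 probe sets on the array. Areg had none, so its expression is not analysed here.

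The models were assembled from epidermal keratinocytes and dermal fibroblasts of untreated adult mice, either Itih5 knockout or wildtype, and the titles of both samples mark day 7. Each genotype is represented by 1 model on 1 array. The cells were primary cultures carried through repeated passages until they no longer needed a collagen coating, so each model stands for the cells that came through this culture. The number of animals that gave cells and the deleted part of Itih5 are not stated in the labels. Itih5 itself (probe set 17366670) gave 30.4 on the knockout array and 29.8 on the wildtype array, both under the threshold for an expressed gene, so this probe set checks neither label.

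EGF family ligands are made as membrane-anchored precursors that metalloproteases and related proteins cut free, after which they bind ErbB receptors on the same or neighbouring cells. Ligand binding pairs the receptors, and their kinases pass the signal to the RAS-ERK, PI3K-AKT and STAT routes. In the epidermis the system is known for keratinocyte proliferation, migration in wounds and restraint of differentiation, and several ligands are made by keratinocytes themselves.

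Each value is the linear intensity of a probe set, and a difference is log2 of the knockout over the wildtype intensity. The decimal point was missing from nearly all deposited values. It was restored by listing the places that give a possible number and keeping a pair of places with a probability of at least 0.95, and a probe set without such a pair is called undecided. A gene was called expressed if its higher intensity reached 47.4, the median over both arrays and all probe sets with undecided ones at their likeliest level, and the 5th percentiles of 21.4 on both arrays mark their background. Over restored probe sets alone the median intensities were 46.2 on the knockout array and 46.6 on the wildtype array. With 1 array per genotype there is no replicate error, no test was possible and no difference has a replicate check. Differences were therefore described by size, with 2-fold as the mark, beside the share of all expressed genes that reached it.

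Hbegf, the heparin-binding ligand of Egfr and Erbb4, was far lower in the model of knockout cells, and no other expressed ligand reached 2-fold. Tgfa came closest. Epgn and Ereg differed little, and Egf was under the threshold on both arrays. Of the receptors, Erbb2 read lower by less than 2-fold, Egfr differed little, and the direction of Erbb3 could not be settled from the deposited digits.

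Among all 12486 expressed genes with a restored point, 494 (3.96%) were higher and 427 (3.42%) lower by 2-fold or more in the knockout, which makes 7.38% in either direction. Of the members, 6 were expressed with a restored point (Hbegf, Tgfa, Btc, Ereg, Epgn and Erbb2). Hbegf was the 1 of these 6 that was lower by 2-fold or more, none (0) was higher by that much, and 5 lay below 0. Their median difference was -0.58, against 0.04 over all expressed genes. With so few members, these figures describe the 6 genes and single out nothing about the family.

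**Figure D1:**
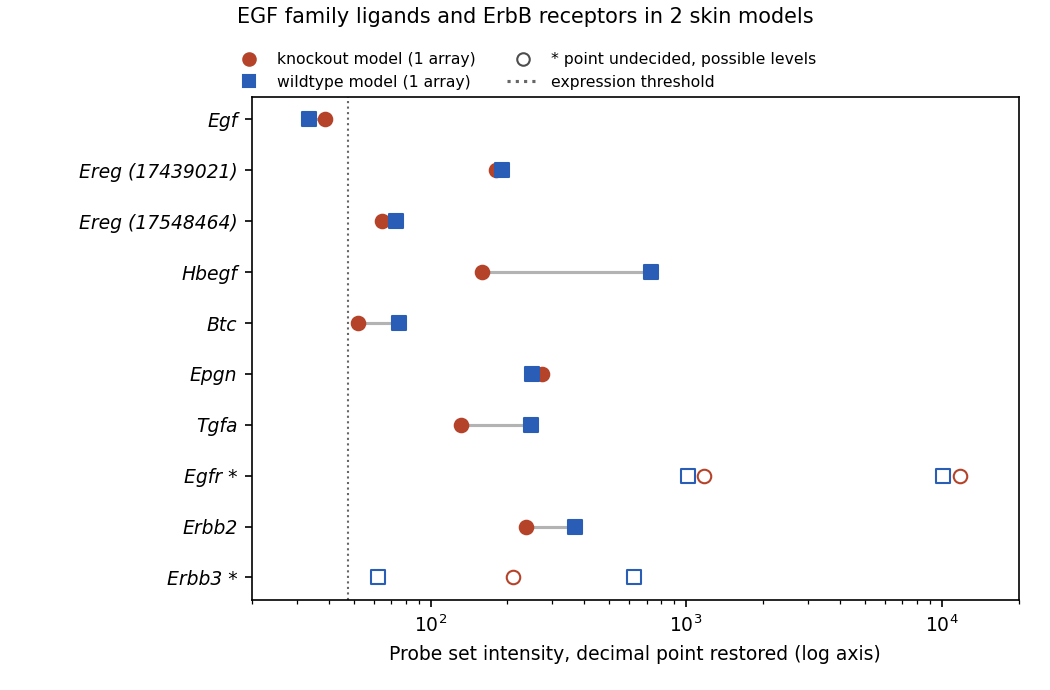
Intensities of the 10 member probe sets on a log axis, circles for the knockout and squares for the wildtype model (1 array each), with the expression threshold of 47.4 as a dotted line. Filled symbols have a restored decimal point, open symbols show each possible level of Egfr and Erbb3 with a probability of at least 0.01. The widest gap among filled symbols is that of Hbegf (159 against 726), and the possible wildtype levels of Erbb3 lie on both sides of its knockout level.

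Hbegf (probe set 17353699, Entrez 15200) read 159 on the knockout array and 726 on the wildtype array. That is a log2 difference of -2.19, or 4.58-fold lower, with both values well over the threshold. Each of its deposited values had 1 place of the point that gives a possible number. The size and direction of this difference therefore rest on the rule for a possible number and not on the probabilities. No alternative changed that rule. Of the 12486 expressed genes, 98 (0.785%) were lower by as much or more. Hbegf encodes a ligand that is shed from keratinocytes, binds heparan sulfate and is known for its part in wound closure.

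Tgfa (probe set 17460385), an autocrine ligand of keratinocytes, read 131 on the knockout array and 247 on the wildtype array. The log2 difference was -0.91, or 1.88-fold lower, which falls short of 2-fold, and 504 expressed genes (4.04%) were lower by as much or more. Btc (probe set 17449585), the betacellulin gene, read 51.9 on the knockout array and 75.2 on the wildtype array, a difference of -0.53 or 1.45-fold. Its values lay just above the threshold, where background narrows a difference, and 9.68% of expressed genes were lower by as much or more.

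Ereg, the gene of epiregulin, had 2 probe sets that read alike in both models. Probe set 17439021 gave 181 on the knockout array and 190 on the wildtype array (-0.07). Probe set 17548464 gave 64.6 on the knockout array and 73.4 on the wildtype array (-0.18). Epgn (probe set 17439013), the gene of epigen, read 274 on the knockout array and 250.3 on the wildtype array (0.13), so it was the 1 expressed ligand above 0. Egf (probe set 17410275), the founding member of the family, read 38.7 on the knockout array and 33.6 on the wildtype array, both under the threshold, and no fold is given. Another probe set that the annotation assigns to Egf together with 6330410L21Rik read 27.8 on the knockout array and 29.8 on the wildtype array, near background as well. Every one of these ligand probe sets had 1 possible place of the point on each array.

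In the RefSeq gene table of GRCm38.p6, Epgn, Ereg, Areg and Btc follow each other on mouse chromosome 5 with no other protein-coding gene between them. Of these neighbours, the 3 with a probe set differed by 0.13 (Epgn), -0.07 (Ereg, higher probe set) and -0.53 (Btc), all under 2-fold. Hbegf and Tgfa, with the lowest differences, lie on other chromosomes.

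**Figure D2:**
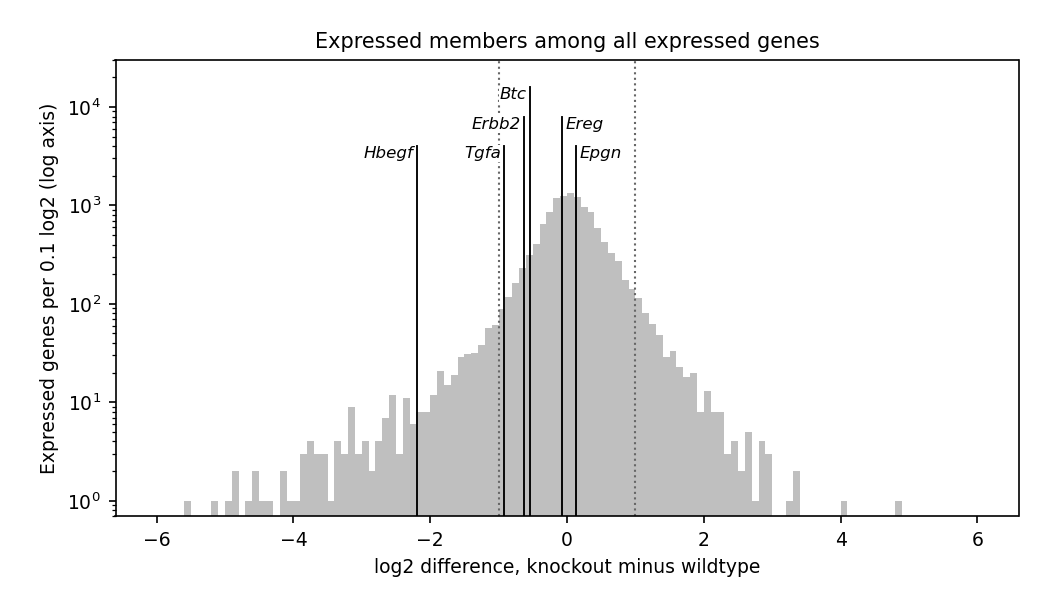
Histogram of the log2 difference, knockout minus wildtype, over 12486 expressed genes in bins of 0.1, with a log axis for the gene count and dotted lines at 2-fold. Black lines mark the 6 expressed members with a restored point, of which Hbegf at -2.19 lies past the 2-fold line and the other 5 lie between the lines.

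Hbegf, the ligand with the lowest difference, and Ereg were not among the members whose RefSeq upstream sequences were used here. Of the expressed ligands that were, Tgfa had the lowest and Epgn the highest difference, so their upstream sequences are shown. Each is the 250 bases before the annotated start, 5′ to 3′ on the gene's strand, from GRCm38.p6. Capitals mark matches on either strand to the GC box GGGCGG or to TATAAA. The Tgfa window is chr6:86194972-86195221 on the plus strand and the Epgn window is chr5:91027267-91027516 on the plus strand.
Tgfa: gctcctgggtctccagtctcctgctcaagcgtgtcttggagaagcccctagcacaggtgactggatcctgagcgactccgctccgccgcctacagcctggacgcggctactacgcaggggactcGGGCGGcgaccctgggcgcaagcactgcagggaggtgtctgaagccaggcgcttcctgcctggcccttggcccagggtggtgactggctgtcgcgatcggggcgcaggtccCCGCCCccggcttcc
Epgn: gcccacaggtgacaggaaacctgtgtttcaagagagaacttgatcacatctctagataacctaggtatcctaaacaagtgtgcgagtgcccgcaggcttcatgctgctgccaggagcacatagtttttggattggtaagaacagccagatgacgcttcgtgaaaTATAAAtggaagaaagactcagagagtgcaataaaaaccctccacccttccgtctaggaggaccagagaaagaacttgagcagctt
The Tgfa window held 2 GC boxes and 0 TATAAA matches, and the Epgn window 0 GC boxes and 1 TATAAA match. Over the 8 windows used, of 7 members with Areg among them and Hbegf not, GGGCGG occurred in 3 windows and TATAAA in 2. Among all 32851 windows of this length, with no chromosome left out, the shares were 32.7% and 12.4%. The AP-1 motif TGANTCA, which reads the same on both strands, was in 0 of the 8 windows and in 6.75% of all windows. These matches are descriptions of letters in a window and were not measured as binding sites.

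Erbb2 (probe set 17255999), the receptor that binds no EGF family ligand itself and serves as the partner of the others, read 236 on the knockout array and 366 on the wildtype array. The log2 difference was -0.63, or 1.55-fold lower, again short of 2-fold, and 7.56% of expressed genes were lower by as much or more. Each value had 1 possible place of the point.

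Egfr (probe set 17247389), the receptor of most ligands of the family, was undecided in its level but not in its difference. The deposited digits 1176015 (knockout) and 10142392 (wildtype) can be read as 1176 against 1014, with a probability of 0.911, or as 11760 against 10142, with a probability of 0.0887. Both readings give a log2 difference of 0.21, or 1.16-fold higher, and together they reach a probability of 0.9998. The other pairs of places, with differences of -3.11 and 3.54, each had a probability under 0.001. Egfr is left out of the counts above, since it did not meet the rule for a restored pair.

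Erbb3 (probe set 17246231), a receptor with little kinase activity of its own that signals as a partner of Erbb2 and binds neuregulins, was undecided in its direction. Its knockout digits 21088603 have 1 possible place and read 211. Its wildtype digits 6240937 can be read as 62.4 or as 624, with probabilities of 0.573 and 0.427. Erbb3 was therefore either 3.38-fold higher (1.76) or 2.96-fold lower (-1.57) in the knockout model. Both readings are past 2-fold, and the deposited values do not separate them.

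**Figure D3:**
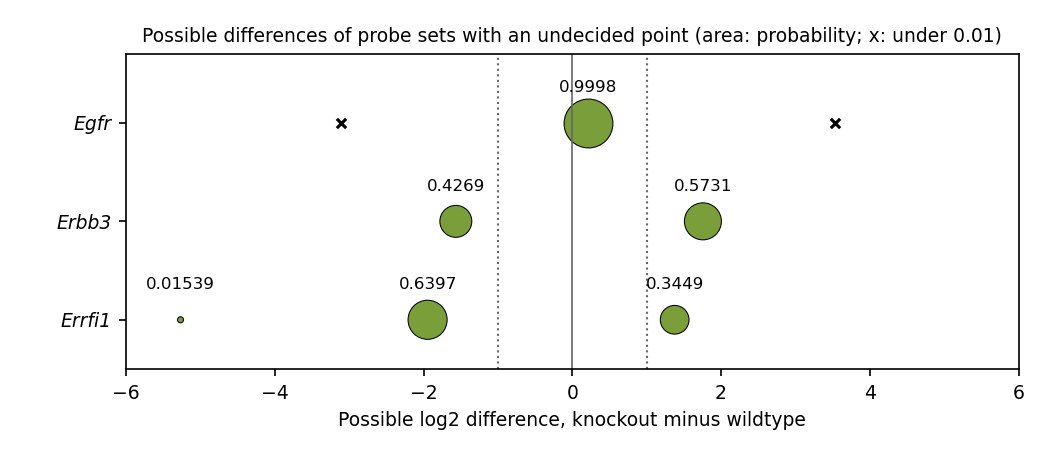
Possible log2 differences, knockout minus wildtype, of Egfr, Erbb3 and Errfi1, whose decimal points are undecided, with circle area and printed number giving the probability of each difference and crosses marking those under 0.01. Egfr has nearly all its probability at 0.21, whereas Erbb3 and Errfi1 divide theirs between both sides of 0.

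The rest of the ErbB system was followed in 5 lists (neuregulins with Erbb4, ligand shedding, the relay inside the cell, feedback inhibitors, and targets induced by ERK) with 78 genes in all. A probe set with 1 symbol was found for 71 of them, the point was restored for 59, and 56 of these were expressed. At least 2-fold differences were seen for 8 (14.3%), 5 higher and 3 lower, with a median of 0.01 over the 56. The share among all expressed genes is 7.38% (3.96% higher and 3.42% lower), which is the background for the counts of each list below. The share of 14.3% over 56 genes rests on few of them, and each list alone holds fewer genes.

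Neuregulins, the ligands of Erbb3 and Erbb4, stayed under 2-fold. Of 4 expressed neuregulin genes, 0 were 2-fold apart, with a median of 0.03. Nrg1 read 1046 on the knockout array and 1073 on the wildtype array, and Nrg2 87.1 and 116 (-0.42). Nrg3 (50.2 and 47.1) and Nrg4 (47.9 and 44.3) reached the threshold on the knockout array only. So close to the threshold, background narrows a difference, and the median includes these genes. Erbb4, the receptor for neuregulins and also for Hbegf and Btc, read 27.7 and 29.0, under the threshold in both.

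Among 9 expressed genes of ligand shedding, 1 was at least 2-fold higher and 1 lower (median -0.08). Adam17, the main sheddase of Hbegf, Tgfa, Areg and Ereg, read 353 on the knockout array and 406 on the wildtype array (-0.20). Rhbdf1, an inactive rhomboid that helps Adam17 mature, read 382 on the knockout array and 404 on the wildtype array (-0.08). Adam10, the sheddase of Egf and Btc, had an undecided level, with differences of 0.23 reaching a probability of 0.996, and Rhbdf2, the other inactive rhomboid of the Adam17 complex, likewise with 0.51 at 0.993. For these 4 genes the restored or likeliest difference was under 2-fold. The metalloprotease genes Adam9 and Adam12, the list's other undecided genes and named after their values were seen, were open in direction. Adam9 was 2.73-fold higher (probability 0.940) or 3.66-fold lower (0.0603), and Adam12 1.94-fold higher (0.944) or 5.14-fold lower (0.0562).

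The shedding genes with a restored point past 2-fold were a metalloprotease and a rhomboid protease. Adam19, a metalloprotease described for neuregulin shedding, read 505 on the knockout array and 92.0 on the wildtype array (2.46, 5.49-fold higher). Its other probe set read 80.6 on the knockout array and 42.1 on the wildtype array (0.94), so its probe sets disagree in size, and their mean was 1.70. Rhbdl2, a rhomboid protease that can cut EGF in the membrane, read 51.6 on the knockout array and 107 on the wildtype array (-1.06, 2.08-fold lower). Adding 16 units to every intensity brought Rhbdl2 to -0.87, under 2-fold.

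In the relay from receptor to ERK, AKT and STAT, 18 genes were expressed and 2 were at least 2-fold lower (median 0.09). Gab1, a docking protein that links receptors to Ptpn11 and PI3K, read 212 on the knockout array and 457 on the wildtype array (-1.11, 2.16-fold lower). Pik3cb, a catalytic subunit of PI3K, read 321 on the knockout array and 825 on the wildtype array (-1.36, 2.57-fold lower). The other 16 stayed under 2-fold.

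Feedback inhibitors, many of them induced by the signal they limit, gave 3 of 13 expressed genes at least 2-fold higher and 0 lower (median 0.16). Among all expressed genes 3.96% were higher and 3.42% lower by that much, and a count of 3 rests on few genes. Lrig1, a membrane protein that promotes loss of ErbB receptors and marks epidermal stem cells, read 693 on the knockout array and 314 on the wildtype array (1.14, 2.21-fold higher). Spry3 and Spred3, of the Sprouty and Spred inhibitors of RAS-ERK signalling, read 171 against 78.9 (1.12) and 167 against 78.3 (1.09). With 16 units added they stood at 0.98 and 0.96, under 2-fold.

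Errfi1, an inhibitor that binds the Egfr kinase and is induced by it, was undecided. Its digits allow 165 against 635 (probability 0.512) or 1650 against 6354 (0.128), both 3.85-fold lower, and 1650 against 635 (0.345), which is 2.60-fold higher. The remaining pair, 165 against 6354 (0.0154), would be 38.5-fold lower. The other 4 undecided genes of this list, named here after their values were seen, were Dusp4, Dusp5, Cblb and Spred1. The likeliest differences of the ERK phosphatase genes Dusp4 (-1.27, probability 0.917) and Dusp5 (-1.43, probability 0.734) were below 0, so the count of 0 lower genes leaves out readings that could be lower.

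Of 12 expressed genes known to be induced by ERK signalling, 1 was at least 2-fold higher and 0 lower (median -0.05). This was Ptgs2, the inducible cyclooxygenase gene, which many other inputs also control, with 1084 on the knockout array and 302 on the wildtype array (1.84, 3.59-fold higher). Fosl1, an AP-1 subunit induced by ERK, had no probe set of its own in the annotation used. The other 11 expressed genes with a restored point lay under 2-fold in both directions. The 2 undecided genes of this list, Phlda1 and Ccnd1, were named after their values were seen. Phlda1 was most likely 1.95-fold lower (probability 0.910), with 5.14-fold higher at 0.0896. Ccnd1 was most likely 1.22-fold higher (0.940), with 8.19-fold lower at 0.0596. The counts for this list leave both genes out.

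**Figure D4:**
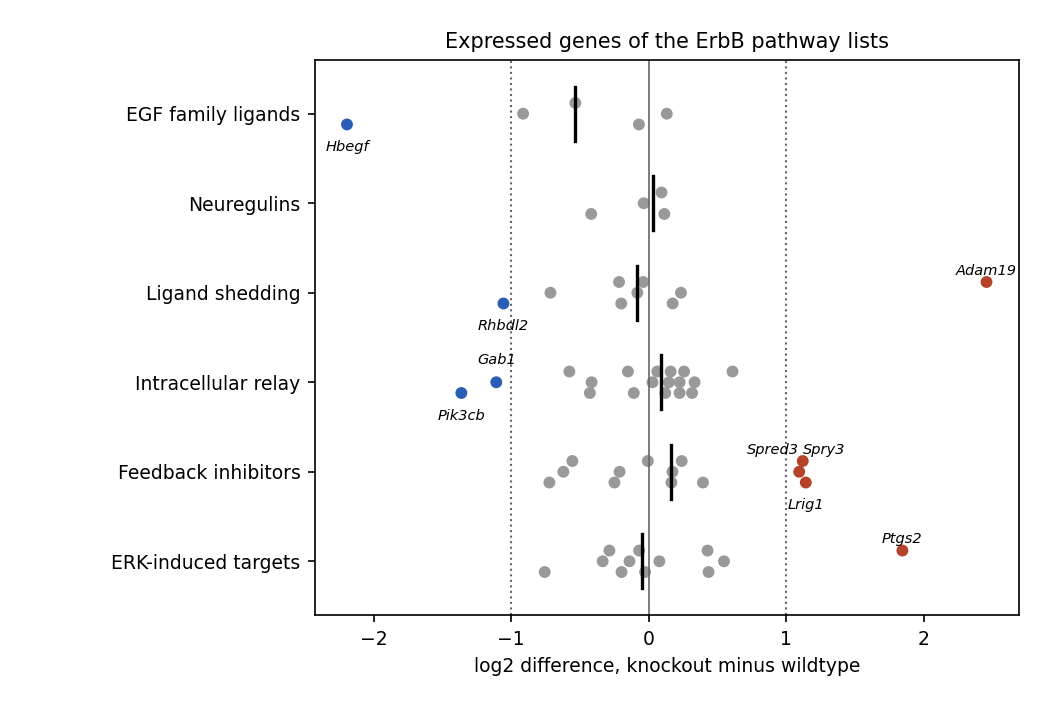
Log2 differences, knockout minus wildtype, of the expressed genes with a restored point in 6 lists, 1 point per gene, with list medians as vertical bars and dotted lines at 2-fold (blue at least 2-fold lower, red at least 2-fold higher). Named points are those past 2-fold, 1 ligand, 2 shedding genes, 2 relay genes, 3 feedback inhibitors and 1 target, and list medians other than that of the ligands (-0.53) lie between -0.08 and 0.16.

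Markers of keratinocytes and dermal fibroblasts, the cells the models were assembled from, differed in the same comparison and stand beside the result for Hbegf. Lists for other cell types of skin were read as well. Among all expressed genes, 3.96% were higher and 3.42% lower by 2-fold or more, which is the background for these lists too. In bulk RNA, fewer cells of a type and less RNA per cell cannot be told apart. Of 12 expressed markers of differentiating keratinocytes, 8 were at least 2-fold lower and 0 higher (median -1.63), with a summed intensity of 3994 on the knockout array and 31475 on the wildtype array. Krtdap read 1596 on the knockout array and 5990 on the wildtype array, and Klk14 read 307 and 11121. On the wildtype array, Klk14 and Lce3e (6899) were the largest terms of that sum. Ivl (0.02), Krt1, Flg and Tgm3 were under 2-fold, and Krt1 and Flg were under the threshold on the knockout array. Tgm1 was undecided, with a likeliest difference of -1.91 (probability 0.759). The lower Hbegf value therefore went along with lower readings of most listed keratinocyte differentiation markers, and their part in it was not tested.

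Other keratinocyte lists read lower as well. Of 5 expressed basal markers 3 were at least 2-fold lower (median -1.01), with sums of 7731 on the knockout array and 18882 on the wildtype array, among them Krt14 with 4076 and 9538 and Dsg3 with 2150 and 6581. A broader epithelial list, called all-layer here, had 10 expressed genes with a restored point. Of these, 4 were at least 2-fold lower and 1 higher (median -0.86, sums 7374 and 13300). The layers in which these genes are active were not measured, so these figures do not stand for keratinocytes of every layer. Also on this list, 2 undecided genes, Esrp1 and Jup, had likeliest differences below 0. The genes at least 2-fold lower were Grhl3, Ovol1, Elf3 and Ehf, and the higher one was Krt8. Cdh1, Sfn, Krt18, Perp (4366 and 7310) and Epcam (954 and 1173) were under 2-fold, so the count does not describe every gene of this list. Of 5 wound keratinocyte markers 4 were at least 2-fold lower (median -1.49, sums 9991 and 27217), with Krt6b at 3943 and 10553 and Krt17 at 3440 and 5925. Krt14 and the other keratinocyte markers given here with intensities were nevertheless well above the threshold in both models.

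All 10 expressed dermal fibroblast markers with a restored point lay above 0, 2 of them at least 2-fold (median 0.87), with sums of 14224 on the knockout array and 7714 on the wildtype array. Left out were 2 undecided fibroblast markers. Pdgfrb had a likeliest difference of 1.04 (probability 0.865), and the probe sets of Col6a1 had likeliest differences of -1.82 (0.581) and 1.47 (0.610). Vim read 6479 on the knockout array and 3665 on the wildtype array, and Pdgfra 1988 and 1025. Of 4 expressed melanocyte markers, 2 were higher by 2-fold or more and 1 lay below 0 (median 0.70), and these 4 summed to 1290 and 447. Mlana read 705 and 109, Mitf 464 and 215, Pmel 69.2 and 56.5, and Sox10 51.3 and 66.4. The other listed melanocyte genes, Tyr, Tyrp1 and Dct, were under the threshold in both models. Whether cell types other than keratinocytes and fibroblasts were present in the models was not tested. Pecam1, Adgre1, Adipoq and Lep, listed for such other types, were under the threshold in both models. The endothelial, macrophage, adipocyte and Schwann cell lists had 0 to 2 expressed members each. Their values were 87.4 and 36.1 for Kdr and 38.7 and 45.0 for Cdh5, 861 and 1161 for Cd68 and 551 and 240.2 for Cd14, 4974 and 816 for Fabp4 and 74.8 and 62.6 for Plin1, and 37.8 and 39.8 for S100b, in the knockout and the wildtype model. The rule for a possible place allowed no restored intensity under 18, so no listed marker could read 0.

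**Figure D5:**
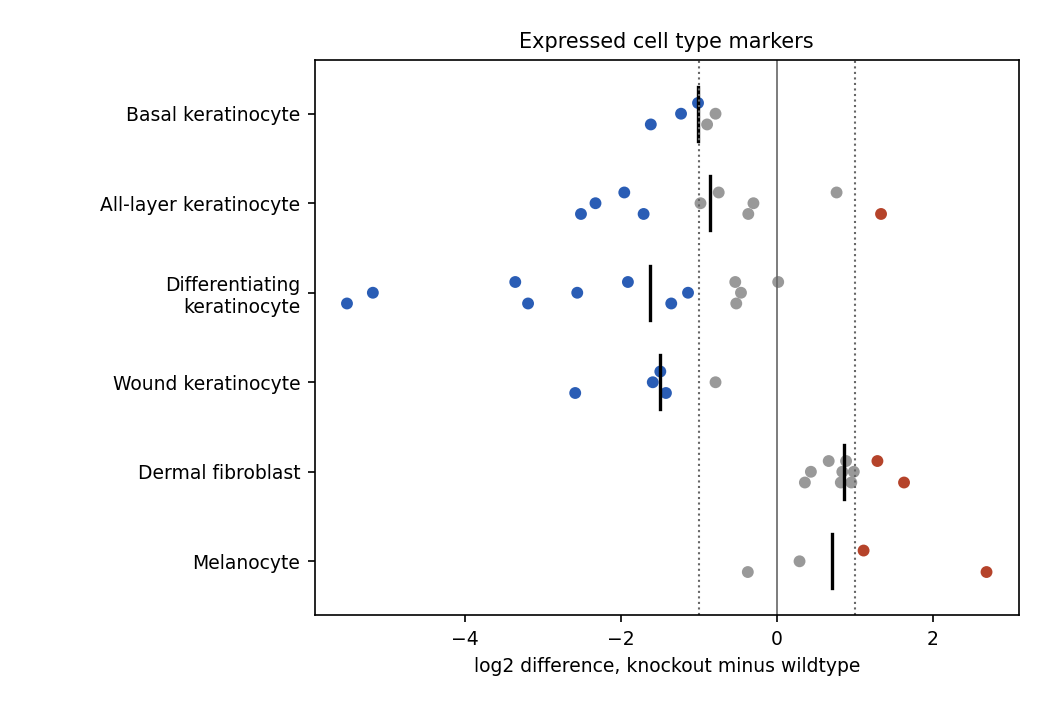
Log2 differences, knockout minus wildtype, of expressed markers with a restored point for 6 cell type lists, 1 point per gene, with list medians as vertical bars and dotted lines at 2-fold (blue at least 2-fold lower, red at least 2-fold higher). The 4 keratinocyte lists have medians between -1.63 and -0.86, the dermal fibroblast list one of 0.87.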

How the data were processed

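RNA of 1 Itih5 knockout and 1 wildtype skin model was labelled with biotin and hybridised to 1 array each, per the labels' protocols. The deposited values are probe set intensities whose decimal point is missing from 67457 of 67586 values. How the authors normalized these intensities is not stated in the labels.

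A place of the point was possible if it gave a number between 18 and 20000 that single precision writes in exactly these digits and that is 2 raised to a single-precision exponent. All values had at least 1 such place, and 20952 of the 33793 probe sets had 1 possible pair. Other pairs were weighed by how mean level and difference are jointly distributed over all probe sets (25 rounds of expectation maximisation, bins of 0.1 log2, a uniform floor worth 1 probe set). A probability of at least 0.95 restored 31810 probe sets (94.1%), with 43.5 expected to be misplaced, and left 1983 undecided. These limits were set after the values were seen. Whether the rule for a possible place keeps the true place of the deposited values was not tested.

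Exactly 1 symbol was given for 23521 probe sets, several for 1814 and none for 8458. The restored probe set with the highest mean stood for a gene, which gave 20779 genes. The number of arrays limits the precision, and no p-value was computed. Older symbols in the lists were matched through RefSeq GRCm38.p6. The text names all members, pathway list genes at least 2-fold apart, 9 fixed pathway genes and the 2 markers per cell type with the highest mean. Undecided genes, Nrg2, Nrg3, Nrg4, the other all-layer keratinocyte markers and the other melanocyte markers were named after their values were seen. The same holds for Lce3e, Ivl, Krt1, Flg, Tgm3, Pecam1, Adgre1, Adipoq and Lep. Members and lists were chosen with earlier results of these data known. Alternatives covered normalization, background, certainty of the point, probe set choice, expression filter and fold. Python 3.11.15, numpy 2.4.6 and pandas 2.3.3 were used.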

Additional observations from a re-analysis of the deposited data

How the results depend on the processing

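The Hbegf difference ranged from -2.23 to -2.09 over 10 alternatives and stayed past 2-fold in each. Hbegf, Tgfa, Btc, Epgn and Erbb2 each had 1 probe set, 1 possible place on each array and both values over the threshold. Only normalization and added units could therefore move their differences. No alternative changed the rule for a possible place of the point. No other expressed ligand, and not Erbb2, reached 2-fold or moved by 0.25 log2 under the 10 alternatives, Tgfa ranging from -0.96 to -0.84. The median of the expressed members was -0.58 and moved only when undecided probe sets were placed at their likeliest point, to -0.30 over 8 genes, since Egfr and Erbb3 then entered. The 8 of 56 pathway genes and 921 of 12486 expressed genes at least 2-fold apart became 5 of 26 and 590 of 7381 with 1 possible place only. Fewer genes were tested there, so these lower counts are not lower shares. With undecided probe sets at their likeliest point they became 12 of 68 (6 higher and 6 lower, against 5 and 3) and 1270 of 13556. More genes entered, and the shares were higher too. At 1.5-fold they were 13 and 2522, and at 3-fold 2 and 312, by construction of the mark. With 16 units added the pathway count was 5. Keeping probe sets whose difference alone was decided was chosen after seeing the data, and it gave Egfr 0.21. No paired analysis was possible because both genotypes have a single array, which also prevents leaving a sample out. Differences of probe sets near the background of 21.4 are compressed, and changed genes are undercounted where several places of the point are possible.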
